A study of Drosophila melanogaster with 6 samples.

Results

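Denticles are the actin-filled hooks that epidermal cells of the Drosophila embryo raise in rows on each segment. The expression of 6 genes that make them was followed: 3 transcription factor genes that choose the denticle fate (ovo, SoxN and D) and 3 genes that act on the actin of the hook (sha, f and sn). They were taken by symbol from the authors' deposited table of 10526 genes, in which all 6 are present, and all 6 passed the filter on low counts. RNA came from whole embryos aged 10 to 15 hours, and each line was homozygous and gave 3 embryo collections. The caspase-site line, sggisoD-CI-DS-SFS, carries changes at 2 caspase recognition sites in shaggy (sgg), the fly glycogen synthase kinase 3 gene. The control line, sggisoD-DS-SFS, lacks those changes. Both lines carry the same engineered additions at sgg, an N-terminal DsRed and an internal StrepII-Flag-StrepII tag. Each line is 1 stock, so the site changes and any other difference between the stocks cannot be told apart.

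In the ventral epidermis, Wingless signalling turns ovo off and leaves smooth cuticle, and signalling through the EGF receptor turns it on. Shaggy restrains the Wingless pathway, and loss of its activity is known to give smooth cuticle in place of denticles. The somatic product of ovo, Shavenbaby, is made as a repressor and becomes an activator when small peptides from the tal gene lead the ubiquitin ligase Ubr3 to it. Shavenbaby then switches on genes for actin bundling, for the apical matrix and for cuticle. SoxN and Dichaete, the protein of D, are related Sox factors that act beside it.

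The actin effectors fell in the caspase-site line and a change of their regulators was not detected. Expression of sha fell to 27.7 ± 8.58 CPM (a gene's reads made comparable between libraries with TMM, a trimmed mean of log ratios), against 58.0 ± 16.6 CPM in the control line. Expression of f fell to 81.9 ± 9.39 CPM, against 110.2 ± 5.23 CPM in the control line, and sn fell to 160.0 ± 2.96 CPM, against 209.5 ± 12.7 CPM (SD, n = 3 collections in each line throughout). The regulators ovo, SoxN and D did not pass the threshold with edgeR, DESeq2 or limma-voom, and 1 of them, SoxN, had an unadjusted edgeR p under 0.05. In edgeR's quasi-likelihood test with Benjamini-Hochberg adjustment over all 10526 tested genes, at an adjusted p of 0.05, 3 of the 6 genes were called, all 3 lower. Over all tested genes 22.3% were called, with 8.67% lower and 13.7% higher in the caspase-site line. The median log2 fold change was -0.30 over the 6 genes and -0.01 over all tested genes. The 6 genes were chosen with earlier results of these data known, so these comparisons are descriptions.

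**Figure D1:**
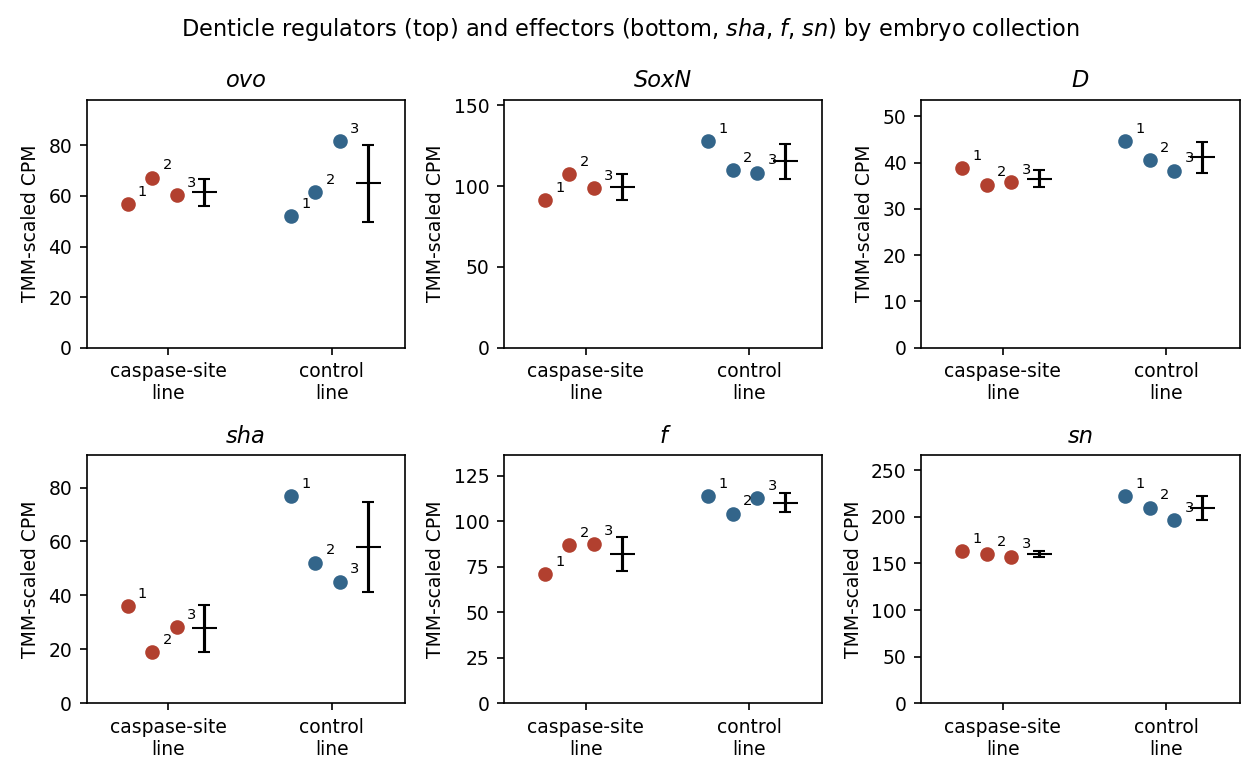
Expression of the 6 genes in TMM-scaled CPM (vertical axes, each from 0) in the 3 collections of the caspase-site line and the 3 of the control line. Points are libraries with their collection numbers, and the black mark is the mean with its SD. For sha, f, sn and SoxN every caspase-site value lies under every control value, for SoxN narrowly (107.6 against 108.4 CPM). For ovo and D the lines overlap. Among all tested genes 20.0% had every caspase-site value under every control value.

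Libraries held 12646077 to 19454630 counted reads, and the reads of the 6 genes ran from 288 for sha to 4112 for sn in a library. The labels name no molecular identifiers, so statements on counting precision cover counting error only. The labels call the collections independent, and p-values measure the spread between them. Total sgg RNA, which does not separate the edited form, was 306 ± 2.77 CPM in the caspase-site line and 302 ± 15.5 CPM in the control line (edgeR adjusted p 0.871). Of the 2350 called genes, 1437 were higher and 913 lower in the caspase-site line. Scaling by library size alone called 2540 genes, 1268 higher and 1272 lower, and the median of all genes lay at -0.05.

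The master regulator ovo (FBgn0003028) lies on the X chromosome at 5048273 to 5070929, forward strand. Positions are those of the fly genome assembly BDGP6 as annotated by Ensembl. The gene has 5 annotated transcripts, which include forms made in the germ line, and the deposited count does not separate them. In the caspase-site line ovo stood at 56.6, 67.3 and 60.4 CPM in collections 1, 2 and 3, and in the control line at 52.0, 61.6 and 81.8 CPM. The caspase-site values all lay inside the control range, whose lowest value came from collection 1 and highest from collection 3. The log2 fold change was -0.09 (standard error 0.15, 95% interval -0.43 to 0.26), with an edgeR adjusted p of 0.719. Without control collection 3 the estimate changed sign, to 0.10.

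Among control collections ovo varied by more than most genes of its level. Its coefficient of variation was 23.4% in the control line, and 96.4% of the 921 tested genes within 1.2-fold of its mean level had a lower one. In the caspase-site line it was 8.79%, above 77.9% of those genes. Counting error alone would give at most 3.89%. Germ cell markers (vas, nos, pgc, aub and bgcn, all 5 tested and none without reads) summed to 29.0, 36.1 and 42.2 CPM in control collections 1, 2 and 3, the order that ovo took. In the caspase-site line they summed to 29.4, 25.9 and 24.5 CPM, an order ovo did not take. By the test 1 of the 5 (20%), vas, was lower, where 8.67% of all tested genes were lower. That call was lost without caspase-site collection 1 or 2 or control collection 2 or 3 (edgeR adjusted p up to 0.0638). The part of germ cells in the ovo values was not tested.

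Both Sox genes gave small estimates under 0. SoxN (FBgn0029123, 2L, 8825645 to 8829670, forward strand) stood at 91.4, 107.6 and 98.8 CPM in caspase-site collections 1, 2 and 3, and at 128.1, 110.1 and 108.4 CPM in control collections 1, 2 and 3. The lines did not overlap, by a margin of under 1 CPM between caspase-site collection 2 and control collection 3. Among all tested genes 41.9% had lines that did not overlap, and 20.0% had them with the caspase-site line lower. The log2 fold change of SoxN was -0.22 (standard error 0.09, 95% interval -0.42 to -0.01), and edgeR's test gave an unadjusted p of 0.0395, adjusted to 0.118.

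Dichaete is the product of D (FBgn0000411, 3L, 14175610 to 14178620, reverse strand). Its RNA stood at 38.8, 35.3 and 35.7 CPM in caspase-site collections 1, 2 and 3, and at 44.7, 40.5 and 38.3 CPM in the control collections. Caspase-site collection 1 lay above control collection 3, so the lines overlapped. The log2 fold change was -0.17 (standard error 0.08, 95% interval -0.36 to 0.02), with an edgeR adjusted p of 0.185. The lower ends of the SoxN and D intervals, -0.42 and -0.36, lie close to the estimates of f and sn given below, so falls of nearly those sizes are within the intervals. The interval of ovo reached -0.43, so a fall of the size estimated for f lies within it too.

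SoxN and D are also needed in the central nervous system, and whole embryos do not separate the tissues. In bulk RNA, fewer cells of a type and less RNA per cell cannot be told apart. Of 6 neuroblast markers, all tested and none without reads, 3 (50%) were lower (mira, wor and pros) and none higher. Among all tested genes 8.67% were lower. The others, ase, dpn and insc, were not called, with estimates of -0.22, 0.19 and 0.11. The call of mira held in all 14 other fits. That of wor was lost in 4, without caspase-site collection 1 or 3 or control collection 1 or 2, and that of pros in 2, without caspase-site collection 1 or 2. The neuroblast marker sum ran from 185 to 199 CPM in the caspase-site line and from 231 to 243 CPM in the control line. Of 6 neuron markers, all with reads, Syt1 and nSyb were higher and elav lower, and fne, brp and Appl were not called. The called share was 50%, where 22.3% of all tested genes were called. The call of nSyb was lost in 7 of 14 other fits, library size alone, the replicate block and all that left out a library except that without control collection 3. That of Syt1 was lost without caspase-site collection 1 or 3 or control collection 2 or 3, and that of elav without caspase-site collection 2 or 3 or control collection 2. The neuron marker sums were 1758 to 1844 CPM in the caspase-site line and 1805 to 1905 CPM in the control line. Glial markers gave 0 calls among 5 with edgeR, DESeq2 and limma-voom (2 at an unadjusted edgeR p under 0.05), with sums of 376 to 397 CPM in the caspase-site line and 361 to 413 CPM in the control line. The part of these cells in the Sox values was not tested. The 6 other Sox genes of the list gave 0 calls with edgeR, DESeq2 and limma-voom and had estimates from -0.31 to -0.09 (median -0.16), with 0 at an unadjusted edgeR p under 0.05.

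Shavenoid, the product of sha, is needed for actin to gather into denticles and wing hairs. The gene (FBgn0003382, 2R, 11324314 to 11336463, forward strand) had 544, 288 and 431 reads in caspase-site collections 1, 2 and 3, and 976, 1022 and 834 reads in control collections 1, 2 and 3. In scaled units these were 36.1, 19.0 and 28.1 CPM in the caspase-site line and 76.7, 52.2 and 45.1 CPM in the control line. The lines did not overlap, with caspase-site collection 2 lowest and control collection 1 highest. Mean expression was 52.2% lower in the caspase-site line, a log2 fold change of -1.06 (standard error 0.25, 95% interval -1.63 to -0.49), with an edgeR adjusted p of 0.0187. Of the 913 genes that fell, 89 fell by more on the log2 scale. Without caspase-site collection 3 the estimate was -1.08 and the call was lost (edgeR adjusted p 0.0640).

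Collections of 1 line differed more in sha than in most genes of its level. Its coefficient of variation was 31.0% in the caspase-site line and 28.6% in the control line, where counting error would give at most 5.89% and 3.46%. Of the 914 tested genes within 1.2-fold of its mean level, 99.2% had a lower coefficient in the caspase-site line and 97.5% in the control line.

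Forked, the product of f, bundles actin filaments. The gene (FBgn0262111, X, 17232942 to 17280964, forward strand, 9 annotated transcripts) stood at 71.0, 86.9 and 87.6 CPM in caspase-site collections 1, 2 and 3, and at 113.7, 104.1 and 112.6 CPM in control collections 1, 2 and 3. Every caspase-site value was under every control value, and caspase-site collection 1 was the lowest. Mean expression was 25.7% lower in the caspase-site line, a log2 fold change of -0.43 (standard error 0.09, 95% interval -0.64 to -0.22), with an edgeR adjusted p of 0.0130.

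Singed, the product of sn, is fascin, which packs actin filaments into tight bundles and is also made in hemocytes and in the ovary. The gene (FBgn0003447, X, 7964024 to 7986601, forward strand) stood at 163.1, 159.7 and 157.2 CPM in caspase-site collections 1, 2 and 3, and at 222.0, 209.9 and 196.5 CPM in the control collections. The lines lay well apart, and the caspase-site collections were close to one another, with a coefficient of variation of 1.85% against 6.08% in the control line. Counting error alone would give up to 2.04% in the caspase-site line, so the spread there was no larger than counting error. Mean expression was 23.6% lower in the caspase-site line, a log2 fold change of -0.39 (standard error 0.06, 95% interval -0.53 to -0.24), with an edgeR adjusted p of 0.00457. Of 6 hemocyte markers, all with reads, Col4a1 and vkg, collagen genes that the fat body also expresses, were higher. That is 33.3%, where 13.7% of all tested genes were higher. The others, srp, Hml, Pxn and crq, were not called, with estimates of 0.21, 1.01, -0.18 and 0.13. The call of vkg was lost without caspase-site collection 1 or 3 or control collection 2 (edgeR adjusted p up to 0.109). The sum of the 6, most of it from the collagen genes, ran from 5335 to 5896 CPM in the caspase-site line and from 3531 to 4602 CPM in the control line, and the part of hemocytes in the sn values was not tested.

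**Figure D2:**
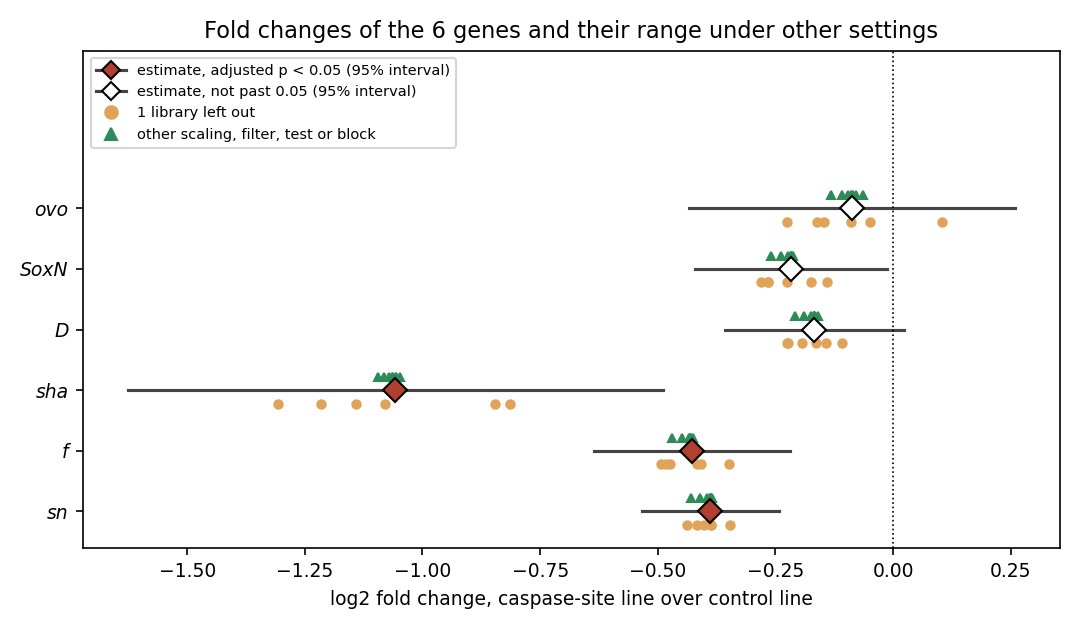
Log2 fold change of each gene, caspase-site line over control line (horizontal axis), with its 95% interval from edgeR's fit. Filled diamonds passed an adjusted p of 0.05, orange points leave out 1 library each, and green triangles use another scaling, filter, test or the replicate block. The estimates of sha, f and sn lie under 0 at every point, and 1 point of ovo lies above it.

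In the authors' deposited table, made for the same libraries, the same 3 of the 6 genes had an adjusted p under 0.05, where 22.6% of all genes did. In the authors' deposited table the log2 fold change, which there runs control over caspase-site line, was 1.05 for sha (adjusted p 0.0176), 0.43 for f (0.0112) and 0.39 for sn (0.00459). In the authors' deposited table ovo had 0.08 (0.749), SoxN 0.21 (0.118) and D 0.16 (0.209).

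A fall of the effectors beside regulators that miss the threshold does not show that the sets differ, so the ratio of reads within a library was compared. This ratio is free of library scaling. It was taken for each effector over each regulator and over the summed epidermal markers, 12 ratios in all, each tested with a two-sided exact permutation test over the 6 libraries, which cannot give a p under 0.1. For every read of D there were 0.93, 0.54 and 0.79 reads of sha in caspase-site collections 1, 2 and 3, and 1.72, 1.29 and 1.18 in control collections 1, 2 and 3. The lines did not overlap (exact permutation p 0.1, 0.15 after adjustment over the 12 ratios). The same held for sha, f and sn over D, and for sha and f over SoxN. For f over SoxN the margin was very narrow, 0.8871 in caspase-site collection 3 and 0.8877 in control collection 1. The share of all tested genes with such ratios apart is not given here. For sn over SoxN the lines overlapped, and over ovo they overlapped for all 3 effectors, with exact permutation p of 0.2 to 0.3. None of the 12 ratios could pass the threshold with 3 collections in each line, so the ratios are descriptions, and a difference in response between effectors and regulators was not shown for any pair.

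Epidermal markers were examined beside the effectors. Of grh, shg, cora, crb and pnt, all tested, 1 (20%) was called, shg, where 22.3% of all tested genes were called. The E-cadherin gene shg fell to 207.6 ± 3.20 CPM in the caspase-site line, against 281 ± 9.41 CPM in the control line (log2 fold change -0.44, edgeR adjusted p 0.00199). The other 4 were not called, with estimates from -0.19 to -0.12. The sum of the 5 ran from 1185 to 1254 CPM in the caspase-site line and from 1358 to 1484 CPM in the control line, with a median log2 fold change of -0.18. Set against this sum in each library, none of the 3 effectors overlapped between the lines. In plain CPM, an unlike measure, 41.9% of all tested genes did not overlap, and their share as ratios to this sum is not given here. The mean log2 ratio differed by -0.88 for sha, -0.23 for f and -0.19 for sn, caspase-site minus control, each with an exact permutation p of 0.1, the smallest possible, and an adjusted 0.15. These differences are what remained after division by the epidermal marker sum. Most of that sum came from cora, at 702 CPM in the caspase-site line and 772 CPM in the control line (log2 fold change -0.14). Without that division the log2 fold changes were -0.43 for f and -0.39 for sn, against the median of -0.18 for the markers. The marker shg alone, at -0.44, fell about as much as f and sn, and ratios to shg were not taken.

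Levels of different genes were compared per length, as reads per kilobase of annotated exon, from the scaled CPM (RPKM). In the caspase-site line the order from high to low was sn (45.6 ± 0.84 RPKM), SoxN (24.7 ± 2.02), D (12.5 ± 0.65), f (8.91 ± 1.02), ovo (8.30 ± 0.73) and sha (4.53 ± 1.40). Only f and ovo overlapped as neighbours in that order. In the control line it was sn (59.7 ± 3.63 RPKM), SoxN (28.7 ± 2.71), D (14.0 ± 1.12), f (12.0 ± 0.57), sha (9.48 ± 2.72) and ovo (8.80 ± 2.06). There f overlapped with sha, and sha with ovo. The exon length pools all annotated transcripts, from 2935 bases for D to 9191 for f, so a gene read mainly from short transcripts appears lower than it is.

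Genes listed as acting on ovo or its protein were compared next. Of 8 on the list, 7 could be tested, and 2 (28.6%) were lower, 0 higher and 5 not called, where 22.3% of all tested genes were called and 8.67% were lower. The list had a median log2 fold change of -0.18, the estimate of grh, which was not called. The gene grh is also among the epidermal markers and gives their median, so the medians are not separate results. The gene spi, which encodes the main ligand of the EGF receptor, fell to 112.3 ± 6.38 CPM in the caspase-site line, against 145.9 ± 10.5 CPM in the control line (log2 fold change -0.38, standard error 0.08, edgeR adjusted p 0.00983). Ser, a Notch ligand gene, fell to 46.9 ± 4.29 CPM, against 57.8 ± 0.26 CPM in the control line (log2 fold change -0.30, standard error 0.08, edgeR adjusted p 0.0297). The call of Ser was lost in 4 of the 6 fits that left out a library, caspase-site collection 1 or 2 or control collection 2 or 3, with an edgeR adjusted p of up to 0.0741. Scaling by library size alone called 4 genes of this list lower. The gene wg, whose product Wingless turns ovo off, stood at 22.7 ± 2.83 CPM in the caspase-site line and 22.8 ± 0.77 CPM in the control line. Ubr3 stood at 122.1 ± 5.62 CPM in the caspase-site line and 124.2 ± 7.45 CPM in the control line. Egfr, the receptor gene, had an estimate of -0.13 and rho, which encodes the protease that releases the ligand, -0.21, neither of them called. The tal gene is listed under 4 identifiers (tal-1A, tal-2A, tal-3A and tal-AA) that share 1 span of 3R, 13813109 to 13814648. All 4 are listed at 0 reads in every library, which is not read here as absence, since reads of fully overlapping genes can be left uncounted.

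The zona pellucida genes listed, part of the apical matrix, had larger estimates in either direction than f and sn. Zona pellucida domain proteins shape the surface over each denticle, and several of their genes are known targets of Shavenbaby, as sha, f and sn are. Of 8 genes on the list, 6 were lower (mey, nyo, dy, m, tyn and dyl), 1 was higher (zye) and 1 was not called (neo). The called share was 87.5%, where 22.3% of all tested genes were called and 8.67% were lower. The list was chosen with earlier results of these data known. The list had a median log2 fold change of -0.99 against -0.01 for all tested genes. Expression of mey was 182.2, 86.2 and 125.6 CPM in caspase-site collections 1, 2 and 3, and 404.7, 291.3 and 239.0 CPM in control collections 1, 2 and 3. Its log2 fold change was -1.25 (standard error 0.27, edgeR adjusted p 0.0135), and nyo gave -1.05 (standard error 0.18, adjusted p 0.00511). The neighbouring X-linked genes dy and m gave -1.02 (standard error 0.16) and -0.97 (standard error 0.18), with edgeR adjusted p of 0.00371 and 0.00698. The 2 remaining called genes, tyn and dyl, had estimates of -0.94 and -0.62, and neo had -1.04 with an adjusted p of 0.0505. Of 14 other fits 7 called neo, among them limma-voom, the replicate block, the fit with no filter and the fits with upper-quartile scaling or library size alone (adjusted p from 0.0225 to 0.124 over the 14). Exons of tyn overlap those of RhoGAP1A. Without caspase-site collection 3 the calls of mey and tyn were lost (edgeR adjusted p 0.0571 and 0.0576).

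The exception, zye, was higher in the caspase-site line. It stood at 177.3, 155.1 and 172.1 CPM in caspase-site collections 1, 2 and 3, and at 41.7, 95.1 and 110.8 CPM in control collections 1, 2 and 3. All 3 caspase-site values were above the control values, of which collection 1 was the lowest. The log2 fold change was 1.02 (standard error 0.29, edgeR adjusted p 0.0351). The call was lost without any 1 of the caspase-site collections, without control collection 2 and in the DESeq2 Wald test, with an adjusted p of up to 0.109 and an estimate of at least 0.71.

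**Figure D3:**
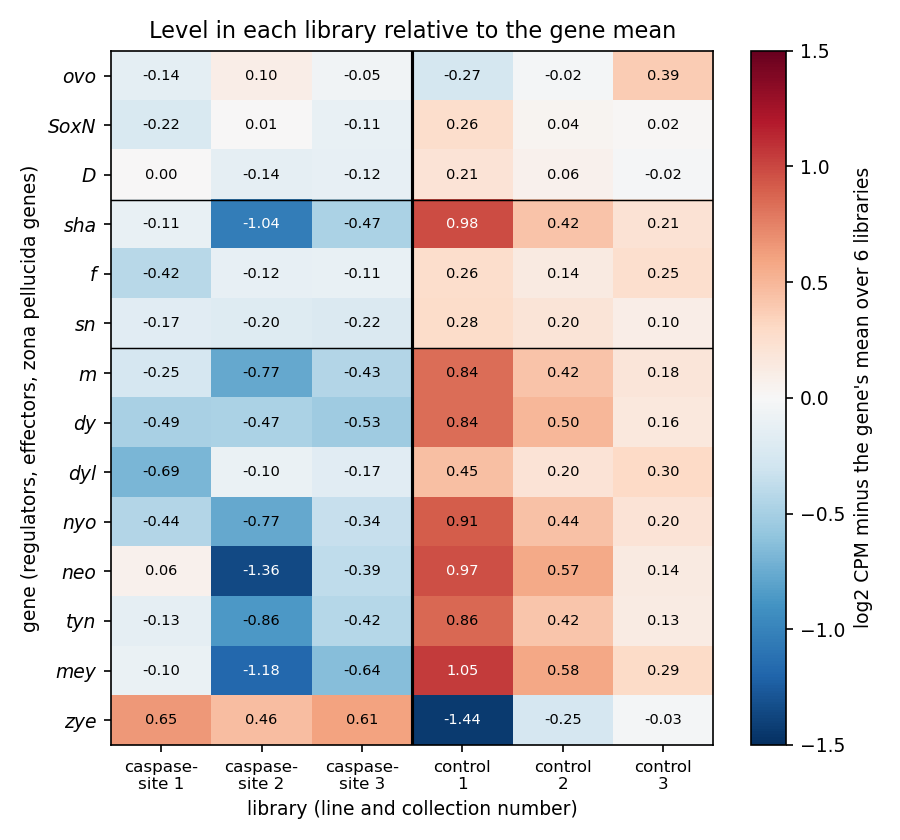
Log2 CPM of each gene minus its mean over the 6 libraries (colour and printed value) for the 3 regulators, the 3 effectors and the 8 zona pellucida genes. Columns are the 3 caspase-site and then the 3 control collections. The row of sha resembles those of m, neo, tyn and mey, with the highest value in control collection 1 and the lowest in caspase-site collection 2, and zye runs the other way between the lines.

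The 6 libraries fell in the same order for sha as for 4 of the 8 zona pellucida genes, m, neo, tyn and mey. Highest to lowest this was control collections 1, 2 and 3 and then caspase-site collections 1, 3 and 2. Of all tested genes 121 (1.15%) had this order, and 0 of the other 5 genes of the set did. The order was looked for after the values of sha had been seen, and it is a description of these libraries. Cuticle genes (9 tested, named below) went both ways beside it. In the caspase-site line they summed to 4899, 5771 and 5345 CPM in collections 1, 2 and 3, and in the control line to 4208, 4778 and 5100 CPM, in each line the reverse of the order of sha. That sum is carried by Gasp, verm and serp, which each took its order. Within the caspase-site line Ddc and y took the order of sha instead, with Ddc at 119.3, 61.3 and 74.0 CPM in collections 1, 2 and 3. Collections span the same 10 to 15 hours of development per the labels, and the part of embryo age in the sha values was not tested.

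General actin genes were mostly not called. Of 20 on the list, 3 (15%) were lower, 0 higher and 17 not called, and the list median was -0.06. This share lay between the 8.67% of all tested genes that were lower and the 22.3% called in either direction. The gene mwh, which limits where wing hairs and denticles form, fell to 76.6 ± 6.43 CPM in the caspase-site line, against 117.3 ± 24.3 CPM in the control line (log2 fold change -0.61, standard error 0.14, edgeR adjusted p 0.0156). Profilin, the product of chic, supplies actin monomers, and its gene fell to 818 ± 66.8 CPM, against 1105 ± 81.4 CPM in the control line (log2 fold change -0.43, standard error 0.08, edgeR adjusted p 0.00702). The cytoplasmic actin gene Act42A fell to 449.9 ± 14.5 CPM, against 546 ± 43.7 CPM in the control line (log2 fold change -0.28, standard error 0.07, edgeR adjusted p 0.0257). The call of mwh was lost without caspase-site collection 2 or 3, and that of Act42A without caspase-site collection 1 or 3 or control collection 2, with edgeR adjusted p of up to 0.0548 and 0.0735. The other cytoplasmic actin gene, Act5C, stood at 2143 ± 92.4 CPM in the caspase-site line and 2165 ± 143 CPM in the control line. WASp, another gene known as a Shavenbaby target, had an estimate of 0.14 with an edgeR adjusted p of 0.206. Without caspase-site collection 3 the list had 1 gene lower, and with library size alone 5.

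Cuticle genes did not share a direction. Of 9 tested (kkv, knk, rtv, serp, verm, Gasp, ple, Ddc and y), 2 were lower, 1 higher and 6 not called, with a median log2 fold change of 0.11. The called share was 33.3%, with 22.2% lower and 11.1% higher. Over all tested genes 22.3% were called, with 8.67% lower and 13.7% higher. Ddc, which encodes dopa decarboxylase of cuticle tanning, was higher, at 84.9 ± 30.5 CPM in the caspase-site line and 31.9 ± 5.85 CPM in the control line (log2 fold change 1.41, standard error 0.24, edgeR adjusted p 0.00523). The chitin synthase gene kkv fell to 279 ± 21.5 CPM, against 352 ± 13.7 CPM in the control line (log2 fold change -0.34, standard error 0.07, edgeR adjusted p 0.0136). The tyrosine hydroxylase gene ple fell to 62.9 ± 10.9 CPM, against 85.7 ± 10.9 CPM in the control line (log2 fold change -0.44, standard error 0.14, edgeR adjusted p 0.0468). Its call was lost in 5 of the 6 fits that left out a library (all but caspase-site collection 2) and with the replicate block, with an edgeR adjusted p of up to 0.107. Left out singly, caspase-site collection 1 or 3 or any 1 of the control collections left 1 gene of the list lower, and the replicate block left 1 lower and 2 higher.

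**Figure D4:**
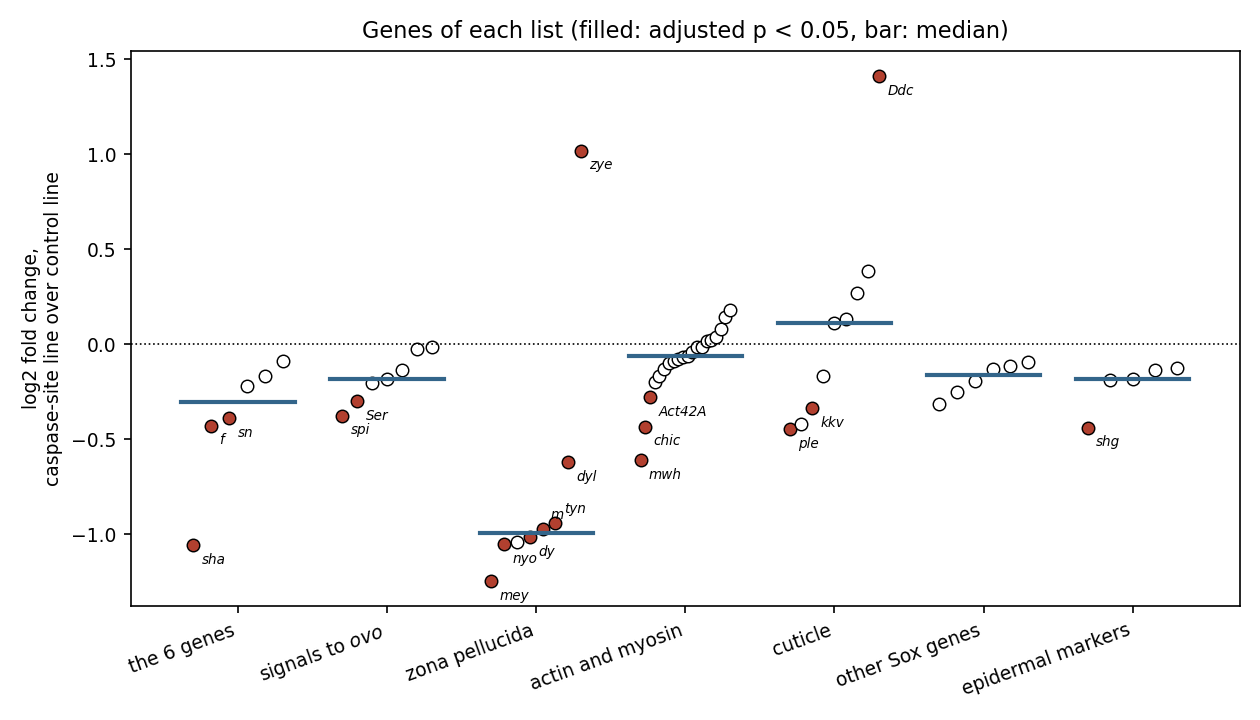
Log2 fold change, caspase-site line over control line (vertical axis), of every tested gene of the 6 followed and of 6 lists. Filled points had an edgeR adjusted p under 0.05 and are named, open points did not, and blue bars are medians. The zona pellucida list has its median at -0.99 with zye alone above 0, and the actin list has its median at -0.06.

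Muscle, a major tissue of these embryos, was compared through 6 markers, all with reads. Of these, 4 (66.7%) were higher (Tm2, up, wupA and Mhc) and none lower, where 13.7% of all tested genes were higher. The others, sls and Mef2, were not called, with estimates of 0.10 and -0.03. The call of Mhc was lost in 7 of 14 other fits, upper-quartile scaling, library size alone and all fits that left out a library except that without control collection 3 (adjusted p up to 0.172). That of up was lost without caspase-site collection 1 and that of wupA without control collection 2. The 6 markers had sums of 14202 to 14386 CPM in the caspase-site line and 11386 to 12681 CPM in the control line.

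Reads of a gene and of a gene on the opposite strand can be mixed if counting ignores strand, which is not given in the sources used here. The exons of sn overlap those of sws, which lies opposite and stood at 92.0 CPM in the caspase-site line and 98.3 CPM in the control line (log2 fold change -0.10, edgeR adjusted p 0.349). Opposite f lies CG8664, with at most 18 reads in a library, and opposite ovo lies lncRNA:CR44833, with at most 3. The exons of SoxN, D and sha overlap no other annotated gene.

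Of the 6 genes 3 lie on the X chromosome with sgg, ovo at 2.37 Mb from it, sn at 5.28 Mb and f at 14.55 Mb. Of the 1697 tested X-linked genes 20.9% were called, against 22.3% over all chromosomes, and their median log2 fold change was -0.04. Within 50 kb of sn, 12 other genes were tested, of which 2 were higher and 1 lower, and within 50 kb of f there were 15, of which 5 were higher and 1 lower. Around sha 32 were tested, of which 8 were higher and 4 lower. Within the same distance of ovo and D, 2 and 3 genes were tested and 0 were called by edgeR, DESeq2 or limma-voom, with 0 at an unadjusted edgeR p under 0.05. Both genes tested near SoxN were higher (LManV and LManVI).

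The genes nearest to each in pattern were found over the 6 libraries by the Euclidean distance between log2 CPM values centred on each gene's mean. For sha these were CG11966 and CG1273 (distances 0.16 and 0.16 log2 units), with log2 fold changes of -1.12 and -1.18. For f they were CG6040 and CG5639 (0.07 and 0.08), and for sn CG9267 and Wnt4 (0.05 and 0.07). For SoxN they were Baldspot and SsRbeta (0.02 and 0.05), for D RpII33 and CG11790 (0.06 and 0.06), and for ovo neb and CG7991 (0.14 and 0.19). The nearest genes of ovo were farther from it than those of f, sn, SoxN and D were from them.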

How the data were processed

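The authors deposited raw read counts for 17493 gene identifiers and a result table of 10526 genes, which repeats those counts, and 0 columns were left unmatched. Per the file headers that table also holds the authors' log2 CPM, log2 fold change, moderated t and log odds score, p-value and adjusted p-value. TopHat2 2.1.1, Bowtie2 2.3.4.0, edgeR 3.14.0 and limma 3.28.21 are named in the submitters' processing notes, while genome build, counting tool and use of strand are not given in the sources used here. Libraries came from 100 ng of RNA with poly(A) selection, a directional kit and 12 PCR cycles, per the labels.

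Counts were filtered with filterByExpr (minimum count 10, minimum total 15), scaled by TMM and tested with edgeR 4.0.16 (glmQLFit, glmQLFTest, R 4.3.3), caspase-site line over control line. Standard errors are the log2 fold change over the square root of F. Alternatives used other scalings and filters, DESeq2 1.42.0, limma-voom (limma 3.58.1), a replicate block and each library left out. On simulated counts for 10526 genes, 173 of 200 genes changed 2-fold were called in the right direction, with 18 false among 191 calls. That false share is above the threshold of 0.05. Smaller changes were not simulated, so the recovery does not cover changes of the sizes estimated for f, sn, SoxN, D and ovo. Named genes are the set, sgg, up to 5 called genes per list by size of change and the 2 nearest patterns, and dyl, tyn, neo, wg, Ubr3, Egfr, rho, WASp, Act5C, tal and overlapping genes were named after their values were seen. The members and lists were chosen with earlier results of these data known. A planned search of promoters for motifs was not run here.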

Additional observations from a re-analysis of the deposited data

How the results depend on the processing

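The log2 fold changes of sha, f and sn stayed negative under each alternative run. With scalings, filters, tests or the replicate block changed, they ran from -1.09 to -1.05 for sha, -0.47 to -0.43 for f and -0.43 to -0.39 for sn, all called. With 1 library left out they ran from -1.31 to -0.81 for sha, -0.49 to -0.35 for f and -0.44 to -0.35 for sn, and the one call lost was that of sha without caspase-site collection 3; the cause was not tested. At an adjusted p of 0.01 the calls of sha (-1.06) and f (-0.43) were lost and sn kept its call. SoxN and D passed the threshold under none of the alternatives, with 1 library left out from -0.28 to -0.14 for SoxN and -0.23 to -0.11 for D. SoxN came near it, with an edgeR adjusted p of 0.0569 with library size alone and 0.0769 without caspase-site collection 2. For ovo the estimate ran from -0.22 to 0.10, positive without control collection 3, the library with its highest value. The number of called genes was 2350 as reported, 1295 to 2146 with 1 library left out (1395 without caspase-site collection 1, 1295 without caspase-site collection 3 and 1499 without control collection 2) and 919 at the stricter threshold. Fits without a library rest on fewer samples. At that threshold 3 zona pellucida genes were lower and 0 higher, against 6 and 1.

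Equally numbered collections did not deviate together, with correlations across genes of -0.02, -0.02 and 0.01, so the numbers were not taken as pairs. The replicate block gave 1994 called genes and changed no call among the 6 genes, with sha at -1.07, f at -0.43, sn at -0.39 and ovo at -0.06.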
